A study of Mus musculus with 12 samples.

Results

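The genes described are 8 receptors of cell migration in mouse macrophages, 6 for chemokines or chemokine-like ligands (Ccr1, Ccr2, Ccr7, Ccrl2, Cxcr4 and Cx3cr1) and 2 for formyl peptides (Fpr1 and Fpr2). They were chosen by gene symbol from the deposited tables, and all 8 were found once among 55487 genes. The study measured polyadenylated RNA in macrophages grown from bone marrow with macrophage colony-stimulating factor. Its 4 groups were Fes-/- macrophages given 1 µg/mL lipopolysaccharide (LPS) for 4 hours, Fes+/+ (wild-type) macrophages given the same, Fes-/- macrophages labelled PBS, and wild-type macrophages labelled PBS, with 3 libraries each. The PBS cells are called untreated in the treatment description, and all 12 libraries carry 1 batch date. Fes encodes a non-receptor tyrosine kinase of blood cells. The strain, age and sex of the mice and the construction of the Fes allele are not given in the sources used here. The design text gives 3 mice per genotype for the 6 libraries of that genotype, and does not say whether libraries with the same number share a mouse.

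Chemokine receptors and formyl peptide receptors are G-protein-coupled receptors that act mostly through Gi proteins and steer a cell along a gradient of ligand. CCR2, the receptor of CCL2, brings monocytes out of the marrow and into inflamed tissue, while CXCR4 holds cells in the marrow through CXCL12. CX3CR1 binds fractalkine and is known from resident and patrolling mononuclear phagocytes, CCR1 binds CCL3 and CCL5, and CCR7 guides dendritic cells to lymph nodes through CCL19 and CCL21. CCRL2 is an atypical receptor that binds chemerin and does not signal through G proteins in the usual way. FPR1 and FPR2 sense formylated peptides from bacteria and mitochondria, and FPR2 also binds annexin A1 and serum amyloid A.

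Of the 8 genes, 7 have a promoter window in the RefSeq table on GRCm38.p6, reaching from 250 bases before to 50 bases after the start of transcription. Those of the receptors with the highest rises and the largest fall under LPS are shown so that their sequences can be read beside the values. Each is given 5′ to 3′ on the gene's own strand, with capitals at every match, on either strand, to a spelling of the NF-kB (kB) motif: GGG, any 5 bases, then CC. The windows lie at chr9:111057469-111057768 (minus strand) for Ccrl2, for which the most upstream of 3 windows is shown, chr17:17883890-17884189 (minus strand) for Fpr1, chr17:17887574-17887873 (plus strand) for Fpr2 and chr1:128592250-128592549 (minus strand) for Cxcr4.
Ccrl2: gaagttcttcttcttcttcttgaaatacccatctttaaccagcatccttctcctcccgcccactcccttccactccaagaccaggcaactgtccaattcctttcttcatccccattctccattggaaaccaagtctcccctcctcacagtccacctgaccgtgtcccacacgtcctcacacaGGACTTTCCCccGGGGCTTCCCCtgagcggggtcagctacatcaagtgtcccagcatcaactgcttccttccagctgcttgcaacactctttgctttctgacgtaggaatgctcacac
Fpr1: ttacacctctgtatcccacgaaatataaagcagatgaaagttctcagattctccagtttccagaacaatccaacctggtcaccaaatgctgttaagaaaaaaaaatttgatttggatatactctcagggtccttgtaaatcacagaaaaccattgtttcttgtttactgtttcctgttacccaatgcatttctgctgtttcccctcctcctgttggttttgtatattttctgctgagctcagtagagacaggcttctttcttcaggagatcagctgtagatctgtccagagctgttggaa
Fpr2: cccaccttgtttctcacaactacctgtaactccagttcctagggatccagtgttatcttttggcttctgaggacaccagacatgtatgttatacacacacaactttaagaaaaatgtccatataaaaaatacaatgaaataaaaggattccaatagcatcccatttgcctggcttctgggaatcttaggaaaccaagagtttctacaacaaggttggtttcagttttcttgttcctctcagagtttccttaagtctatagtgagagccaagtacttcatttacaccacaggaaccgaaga
Cxcr4: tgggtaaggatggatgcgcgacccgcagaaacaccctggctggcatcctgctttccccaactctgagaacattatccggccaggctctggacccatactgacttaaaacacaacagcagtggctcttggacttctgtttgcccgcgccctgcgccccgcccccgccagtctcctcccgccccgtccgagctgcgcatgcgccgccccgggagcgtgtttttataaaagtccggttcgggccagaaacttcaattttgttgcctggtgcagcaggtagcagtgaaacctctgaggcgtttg

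The Ccrl2 window held 3 overlapping or neighbouring kB matches, the first beginning 68 bases before the start of transcription, and 1 of them also matched the narrower spelling GGNNTTTCC, which was chosen after the sequences were read. The other Ccrl2 windows, which lie further downstream, and those of Fpr1, Fpr2, Cxcr4 and Ccr2 held neither spelling. The windows of Ccr1, which rose modestly under LPS, and of Cx3cr1, which fell, each held 1 match to the wider spelling. Among all 32851 promoter windows of the same length, 50.8% held the wider kB spelling and 5.82% held GGNNTTTCC on either strand, so the wider spelling is common. The core GAGGAA of PU.1 and other ETS factors (28.3% of windows) was found for Ccr1 and Fpr2, and the AP-1 motif TGANTCA (7.81%) and the interferon element of GAAA, any 2 bases and GAAA again (3.44%) were found in none of these genes' windows. Overlaps between different motifs were counted as separate matches.

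The libraries held 61016254 to 101027166 counts, and the 15801 genes that passed a filter on low counts were fitted together. Levels of 1 gene are given as CPM, each count as a share of its TMM-scaled library, and levels of different genes are compared as the authors' deposited TPM, which divides by gene length. The check of the labels was the targeted gene. Fes averaged 33.8 ± 1.16 CPM in Fes-/- and 162 ± 9.77 CPM in wild-type macrophages under LPS, and 68.6 ± 2.05 and 179 ± 10.2 CPM under PBS (SD, n = 3 each), so the Fes signal was reduced but present in all 6 Fes-/- libraries; whether these reads lie outside the altered part of the gene cannot be read from gene totals. All 10 macrophage markers were tested, and they summed to 19588 to 24827 TPM (Fes-/- LPS), 21344 to 25738 TPM (wild-type LPS), 34856 to 45336 TPM (Fes-/- PBS) and 39729.5 to 47111 TPM (wild-type PBS). The 7 T-cell markers summed to 12.1 to 14.1 TPM (Fes-/- LPS), 12.2 to 15.4 TPM (wild-type LPS), 1.78 to 4.44 TPM (Fes-/- PBS) and 3.51 to 8.36 TPM (wild-type PBS), mostly Lck (up to 13.7 TPM) and Cd4 (up to 8.10 TPM), with at most 5 counts of Trac, 4 of Cd3d and 1 each of Cd3e and Cd3g. The 6 B-cell markers summed to 6.63 to 10.7, 7.31 to 15.2, 54.3 to 86.2 and 44.4 to 114 TPM in the same groups, mostly Ighm (up to 88.5 TPM) and Cd79b (up to 25.6 TPM). The part of these cells in any LPS effect was not tested. Of the natural killer cell markers Ncr1, Gzma and Prf1 had no count, while Klrb1c reached 17 counts and Eomes 2 at most. TMM factors were 0.728 to 0.731 (Fes-/- LPS), 0.707 to 0.737 (wild-type LPS), 1.38 to 1.4 (Fes-/- PBS) and 1.35 to 1.38 (wild-type PBS). They therefore set LPS levels higher against PBS levels than plain library totals do. The median log2 change of all tested genes under LPS was -0.08 in Fes-/- and -0.07 in wild type with TMM, but -1.01 and -0.98 with library totals, so the size of every LPS effect depends on this choice.

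The first question was how 4 hours of LPS changes the receptors in each genotype. The set of receptors turned over: Ccrl2, Fpr1 and Fpr2 rose strongly, Ccr1 rose modestly (in Fes-/- a call lost with library totals), Cxcr4 fell steeply, and Ccr2 and Cx3cr1 fell, in Fes-/- and in wild-type macrophages. By edgeR's quasi-likelihood test with Benjamini-Hochberg adjustment, 7 of the receptors were called in each genotype, 4 higher and 3 lower. Ccr7 was higher under LPS too, but had 3 to 11 counts under PBS and passed the filter on low counts through its LPS libraries, so its LPS values are given as a description with no test. That test called 73.2% of all tested genes in Fes-/- macrophages (34.3% higher, 38.9% lower) and 73.4% in wild type (34.6% higher, 38.8% lower), so a call by itself sets no gene apart. The 3 LPS libraries and the 3 PBS libraries did not overlap for any of the other 7 in either genotype, as was so for 77.2% of tested genes in Fes-/- (36.3% higher, 41% lower) and 75.3% in wild type (35.5% higher, 39.8% lower).

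**Figure D1:**
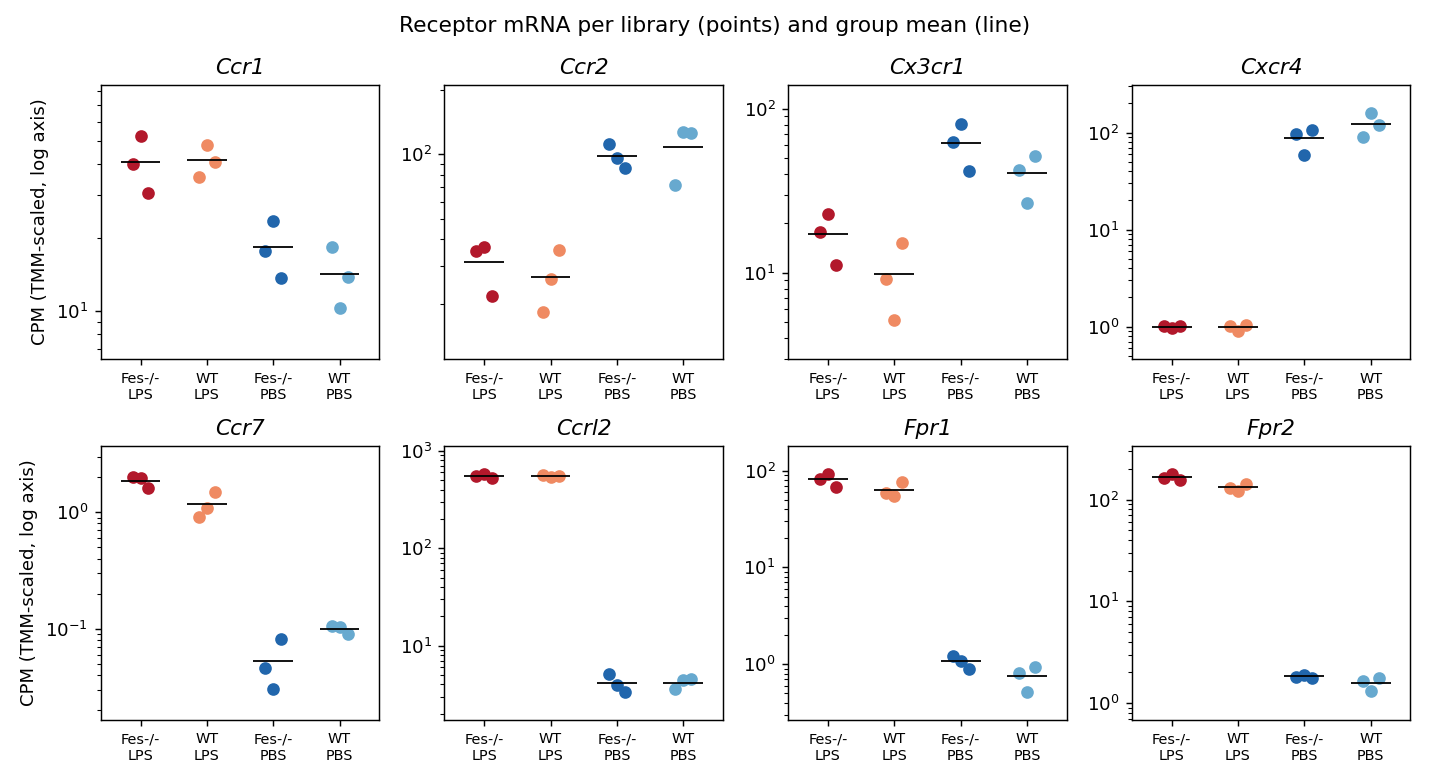
Level of each receptor in CPM after TMM scaling (log axis) in the 12 libraries, points for libraries and lines for the means of 3. Ccrl2, Fpr1, Fpr2, Ccr7 and Ccr1 lie higher under LPS and Cxcr4, Ccr2 and Cx3cr1 lower, with no overlap between LPS and PBS libraries of a genotype.

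Fpr1 (ENSMUSG00000045551, GRCm38 chromosome 17, 17876471 to 17883940, minus strand) and Fpr2 (ENSMUSG00000052270, chromosome 17, 17887824 to 17893952, plus strand) lie head to head with annotated starts 3884 bp apart. Fpr1, a receptor for formylated bacterial peptides, had 81.9, 92.9 and 67.8 CPM in Fes-/- LPS libraries against 1.23, 1.08 and 0.901 CPM in Fes-/- PBS libraries. In wild type it had 58.7, 54.7 and 76.4 CPM under LPS against 0.812, 0.518 and 0.926 CPM under PBS. The gap between treatments was far wider than the spread within any group, with a log2 change of 6.24 ± 0.21 (SE) in Fes-/- (adjusted p = 1.22e-11) and 6.38 ± 0.22 in wild type (adjusted p = 1.24e-11). Fpr2, which also senses annexin A1 and serum amyloid A, had 165, 177 and 155 CPM in Fes-/- LPS libraries against 1.81, 1.89 and 1.78 CPM in Fes-/- PBS libraries. Its wild-type values were 131, 122 and 143 CPM under LPS against 1.64, 1.31 and 1.76 CPM under PBS. Fpr2 rose 90.5-fold in Fes-/- (log2 6.50 ± 0.12, adjusted p = 8.04e-15) and 83.7-fold in wild type (6.39 ± 0.12, adjusted p = 9.29e-15). With library totals the log2 change of Fpr1 was 5.30 in Fes-/- and 5.47 in wild type, and that of Fpr2 5.57 and 5.47. The ratio of Fpr2 to Fpr1 in TPM, which no scaling of the libraries changes, averaged 2.11 ± 0.204 (Fes-/- LPS), 2.16 ± 0.216 (wild-type LPS), 1.77 ± 0.257 (Fes-/- PBS) and 2.20 ± 0.342 (wild-type PBS; SD, n = 3 each).

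The family makes the Fpr2 counts somewhat uncertain. Its longest transcript matched Gm5966, an annotated pseudogene, at 95.7% over 1041 bp and the neighbouring receptor gene Fpr3 at 87.8% over 1131 bp, and its exons share 48 bp with those of Fpr3. These copies held few reads: Gm5966 had 3 to 9 counts in Fes-/- LPS and 1 to 4 in wild-type LPS libraries, Fpr3 had 20 to 27 and 12 to 19, and neither had a count in any PBS library. Fpr1 was less alike, with 78.9% identity to Fpr2 over 336 bp.

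Ccrl2 (ENSMUSG00000043953, chromosome 9, 111054486 to 111057519, minus strand), the atypical chemerin receptor, reached the highest level of the 8 under LPS. It had 557, 581 and 531 CPM in Fes-/- LPS libraries against 5.12, 3.94 and 3.37 CPM in Fes-/- PBS libraries. In wild type it had 570.3, 536 and 545 CPM under LPS against 3.59, 4.41 and 4.54 CPM under PBS. Every LPS library lay far above every PBS library. Ccrl2 rose 134-fold in Fes-/- (log2 7.07 ± 0.15, adjusted p = 2.84e-14) and 132-fold in wild type (7.04 ± 0.15, adjusted p = 3e-14). Among all tested genes 1.59% in Fes-/- and 1.7% in wild type had a log2 change at least as high. With library totals its log2 change was 6.13 in Fes-/- and 6.13 in wild type.

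Ccr7 (ENSMUSG00000037944, chromosome 11, 99144196 to 99155077, minus strand), the lymph-node homing receptor, was higher under LPS on few counts. It had 148, 111 and 77 counts in Fes-/- LPS libraries against 4, 3 and 7 in Fes-/- PBS libraries. In wild type it had 41, 51 and 72 counts under LPS against 11, 9 and 8 under PBS. The LPS libraries lay above the PBS libraries in both genotypes, with a fitted log2 change of 5.12 ± 0.34 in Fes-/- and 3.52 ± 0.32 in wild type. It stayed a minor receptor, at 2.30 ± 0.233 TPM in Fes-/- and 1.42 ± 0.371 TPM in wild-type cells under LPS. On log2(TPM + 1) its change was 1.55 in Fes-/- and 0.96 in wild type, a scale on which the change of a gene this low is understated.

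Ccr1 (ENSMUSG00000025804, chromosome 9, 123962124 to 123968692, minus strand), the receptor of CCL3 and CCL5, had the smallest change of the 8. It had 40.2, 52.2 and 30.5 CPM in Fes-/- LPS libraries against 17.6, 23.5 and 13.6 CPM in Fes-/- PBS libraries. In wild type it had 35.5, 48.2 and 40.8 CPM under LPS against 18.3, 10.3 and 13.7 CPM under PBS. The LPS libraries lay above the PBS libraries in both genotypes, with a log2 change of 1.16 ± 0.26 in Fes-/- (adjusted p = 0.00186) and 1.55 ± 0.26 in wild type (adjusted p = 0.000257). With library totals the change was 0.23 in Fes-/- (adjusted p = 0.411) and 0.64 in wild type (adjusted p = 0.0362), so its call in Fes-/- was lost. On log2(TPM + 1) it was 0.18 (limma adjusted p = 0.496) in Fes-/- and 0.62 (limma adjusted p = 0.0355) in wild type. Relative to the median of all genes it was 1.25 in Fes-/- and 1.63 in wild type with TMM, and 1.24 and 1.62 with library totals. Its nearest relative, Ccr1l1, matched it at 78.1% over 1043 bp and had 12 to 75 counts in any library.

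Among the receptors that fell, Cxcr4 (ENSMUSG00000045382, chromosome 1, 128588199 to 128592293, minus strand), the CXCL12 receptor, had the highest TPM of the 8 in PBS cells and the lowest mean TPM in LPS cells. It had 1.01, 0.971 and 1.01 CPM in Fes-/- LPS libraries, from 74, 55 and 48 counts, against 96.3, 59.0 and 106 CPM in Fes-/- PBS libraries. Wild-type libraries had 1.02, 0.898 and 1.04 CPM under LPS, from 46, 42 and 50 counts, against 90.4, 159.8 and 119 CPM under PBS. All 6 LPS libraries lay within a narrow band, while the 6 PBS libraries spread more widely. Cxcr4 was 87.2-fold lower under LPS in Fes-/- (log2 -6.45 ± 0.30, adjusted p = 1.75e-09) and 125-fold lower in wild type (-6.96 ± 0.31, adjusted p = 1.14e-09). With library totals the log2 change was -7.38 in Fes-/- and -7.87 in wild type. In bulk RNA, fewer cells of a type and less RNA per cell cannot be told apart.

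Ccr2 (ENSMUSG00000049103, chromosome 9, 124101950 to 124113557, plus strand), the CCL2 receptor, had 35.3, 36.9 and 21.8 CPM in Fes-/- LPS libraries against 111, 95.9 and 86.3 CPM in Fes-/- PBS libraries. Its wild-type values were 18.2, 26.0 and 35.8 CPM under LPS against 71.4, 128 and 126 CPM under PBS. Ccr2 fell in both, with a log2 change of -1.64 ± 0.30 in Fes-/- (adjusted p = 0.000501) and -2.02 ± 0.30 in wild type (adjusted p = 0.000119), or -2.58 and -2.94 with library totals. The 8 monocyte markers summed to 809.6 to 966 TPM (Fes-/- LPS), 889 to 964 TPM (wild-type LPS), 42.1 to 77.5 TPM (Fes-/- PBS) and 51.7 to 80.8 TPM (wild-type PBS). Of them 4 were called higher under LPS in Fes-/- and 6 in wild type, with none lower and none of the 8 at 0. With library totals 4 were higher and 2 lower in Fes-/- and 4 higher and 1 lower in wild type, and up to 836 TPM of the sum came from Ms4a4c. Their part in the fall of Ccr2 was not tested.

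Cx3cr1 (ENSMUSG00000052336, chromosome 9, 119901616 to 120069879, minus strand), the fractalkine receptor, had 17.7, 22.8 and 11.2 CPM in Fes-/- LPS libraries against 62.5, 81.3 and 42.0 CPM in Fes-/- PBS libraries. In wild type it had 9.14, 5.13 and 15.3 CPM under LPS against 42.7, 26.8 and 51.8 CPM under PBS. The log2 change was -1.84 ± 0.44 in Fes-/- (adjusted p = 0.00361) and -2.04 ± 0.45 in wild type (adjusted p = 0.00239), or -2.78 and -2.95 with library totals. The library numbered 2 was the highest of the 3 in both Fes-/- groups and the lowest of the 3 in both wild-type groups. Its exons share 78 bp with Gm33858 on the opposite strand, which had at most 55 counts in any library, and whether counting used strand is unknown here.

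**Figure D2:**
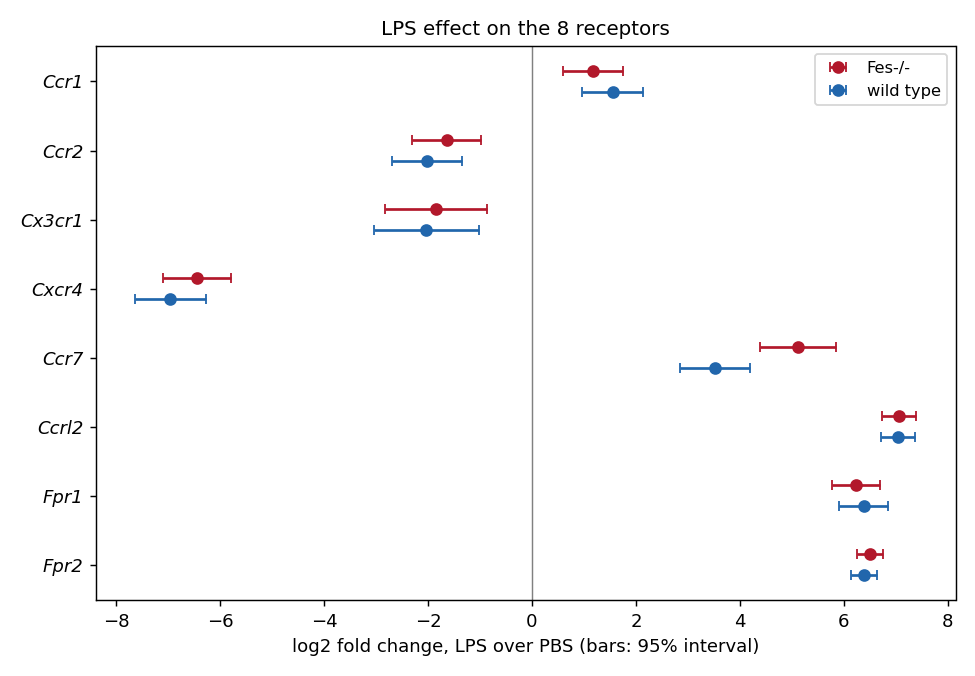
Log2 fold change of LPS over PBS for each receptor in Fes-/- (red) and wild-type (blue) macrophages from the edgeR fit with TMM scaling, bars 95% intervals. Both genotypes have the same direction for all 8 genes, from 7.07 for Ccrl2 in Fes-/- to -6.96 for Cxcr4 in wild type. The paired intervals overlap for every gene given a test. Ccr7 had 3 to 11 counts under PBS, and its values and intervals are a description with no test.

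Within each library, the make-up of the receptor mRNA can be read with no scaling between libraries. The summed TPM of the 8 was 971 to 1117 in Fes-/- LPS, 873 to 977 in wild-type LPS, 377 to 462 in Fes-/- PBS and 369 to 559 in wild-type PBS libraries. Unlike the shares, these sums depend on the TPM scale when set against each other between treatments. Under LPS, Ccrl2 made up 50.2% ± 1.73 of that sum in Fes-/- and 55.3% ± 2.76 in wild type (SD, n = 3 each, as for the shares that follow), Fpr2 29.9% ± 0.462 and 26.5% ± 0.816, and Fpr1 14.2% ± 1.12 and 12.4% ± 1.69. Under PBS, Cxcr4 made up 55.0% ± 11.9 in Fes-/- and 66.4% ± 6.29 in wild type, followed by Ccr2 at 16.7% ± 2.13 and 15.6% ± 2.27 and Cx3cr1 at 16.2% ± 6.62 and 9.27% ± 3.77. After LPS the share of Cxcr4 was 0.130% ± 0.0130 in Fes-/- and 0.142% ± 0.00567 in wild type. Macrophages of both genotypes thus carried mainly Ccrl2, Fpr2 and Fpr1 transcripts under LPS and mainly Cxcr4, Ccr2 and Cx3cr1 transcripts under PBS.

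**Figure D3:**
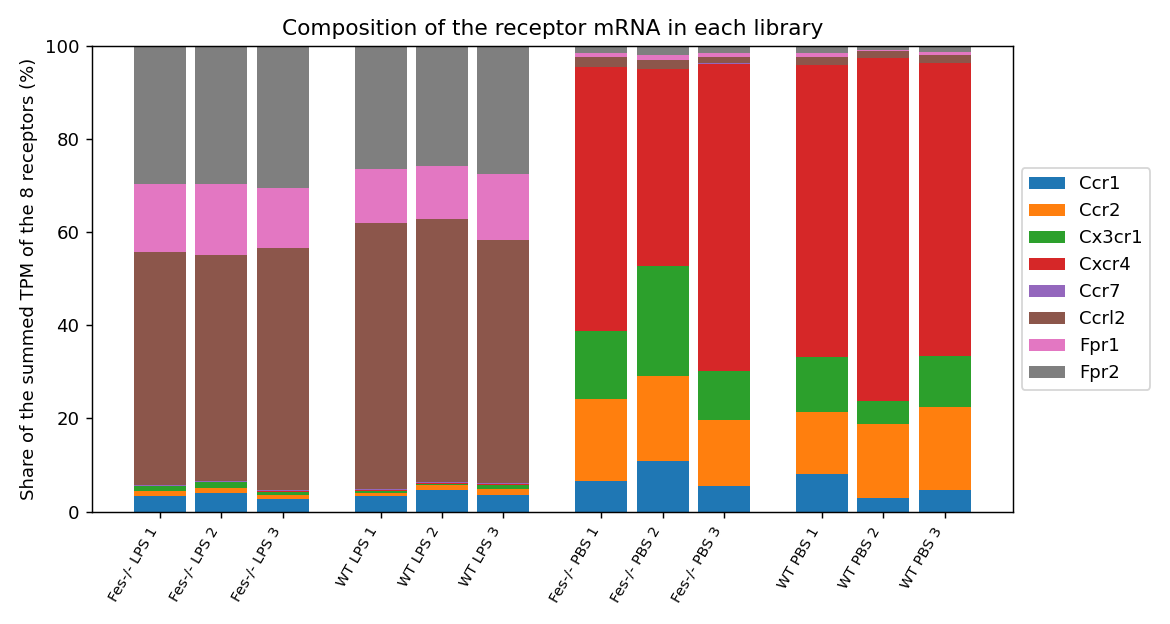
Share of each receptor in the summed TPM of the 8 (%) in each of the 12 libraries. Ccrl2, Fpr2 and Fpr1 fill most of the LPS bars, and Cxcr4, Ccr2 and Cx3cr1 most of the PBS bars, in both genotypes.

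Ranked by mean TPM, the order under LPS was the same in both genotypes: Ccrl2 (522 ± 18.6 TPM in Fes-/- and 511 ± 18.1 TPM in wild type), Fpr2 (312 ± 17.7 and 246 ± 21.3), Fpr1 (149 ± 21.8 and 115 ± 21.9), Ccr1 (35.2 ± 9.04 and 35.3 ± 5.24), Ccr2 (11.3 ± 2.87 and 9.51 ± 3.19), Cx3cr1 (9.29 ± 3.07 and 5.28 ± 2.77), Ccr7 (2.30 ± 0.233 and 1.42 ± 0.371), and last Cxcr4, whose libraries lay at 1.30 to 1.39 TPM in Fes-/- and 1.19 to 1.39 TPM in wild type. Neighbours in this order whose library ranges overlapped were Ccr2 and Cx3cr1 in both genotypes and Ccr7 and Cxcr4 in wild type. Under PBS the order was again shared: Cxcr4 (230.2 ± 61.1 TPM in Fes-/- and 316 ± 90.8 TPM in wild type), Ccr2 (69.6 ± 11.1 and 74.2 ± 21.9), Cx3cr1 (66.4 ± 22.9 and 41.5 ± 12.9), Ccr1 (31.1 ± 9.28 and 23.1 ± 6.51), Ccrl2 (7.69 ± 1.87 and 7.46 ± 0.924), Fpr2 (6.77 ± 0.436 and 5.63 ± 0.810), Fpr1 (3.89 ± 0.721 and 2.63 ± 0.726) and Ccr7 (0.127 ± 0.0581 and 0.234 ± 0.0222). Overlapping neighbours under PBS were Ccr2 and Cx3cr1 in both genotypes, Cx3cr1 and Ccr1 in wild type, and Ccrl2 and Fpr2 in Fes-/- cells.

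The second question was whether loss of Fes changes the receptors, with LPS or without. None of the 8 was called between genotypes by edgeR's quasi-likelihood test, under LPS, where 0.108% of all tested genes were called (0.0696% higher, 0.038% lower), or under PBS, where 0.0823% were (0.0506% higher, 0.0316% lower). At an unadjusted p under 0.05 there were 3 of 8 under LPS (6.52% of all genes) and 1 of 8 under PBS (3.83%), and DESeq2 called 0 in each. The log2 differences ran from -0.019 (Ccr1) to 0.81 (Cx3cr1) under LPS and from -0.92 (Ccr7) to 0.62 (Cx3cr1) under PBS. With no filter on low counts edgeR called 3 receptors under LPS (Cx3cr1, Fpr1 and Fpr2) and 2 under PBS (Cx3cr1 and Cxcr4). The libraries of the genotypes did not overlap for Ccr7 and Fpr2 under LPS, both higher in Fes-/-, where 11.4% of tested genes did not overlap (5.78% higher, 5.63% lower). Under PBS they did not overlap for Ccr7, lower in Fes-/-, and Fpr2, higher in Fes-/-, where 6.82% of tested genes did not (3.03% higher, 3.8% lower). The median log2 difference of the 8 was 0.28 under LPS and 0.10 under PBS, where the median of all tested genes was within rounding of 0 in each.

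Fpr2 under LPS had the smallest p of the 8. It averaged 166 ± 10.8 CPM in Fes-/- and 132 ± 10.5 CPM in wild-type LPS libraries (SD, n = 3 each), a log2 difference of 0.33 ± 0.089 (95% interval 0.14 to 0.52, unadjusted p = 0.00233, edgeR adjusted p = 0.505), and 3 of 3 Fes-/- libraries were higher than any wild-type one. Without a filter on low counts its adjusted p by edgeR was 0.0241, and over the other 21 alternatives it ranged from 0.178 to 1. Fpr1 averaged 80.9 ± 12.6 CPM in Fes-/- and 63.3 ± 11.6 CPM in wild-type LPS libraries (0.35 ± 0.16, edgeR adjusted p = 0.763), and these libraries overlapped. In PBS cells Fpr2 averaged 1.83 ± 0.0605 and 1.57 ± 0.233 CPM (0.21 ± 0.11, edgeR adjusted p = 0.975) and Fpr1 1.07 ± 0.163 and 0.752 ± 0.210 CPM (0.50 ± 0.23, edgeR adjusted p = 0.975). Both genes are also known from neutrophils, whose 12 markers summed to 92.6 to 153 TPM in Fes-/- and 137 to 193 TPM in wild-type LPS libraries, and to 82.1 to 102 and 107 to 147 TPM in PBS libraries. Of the 9 neutrophil markers tested none was called between genotypes. By edgeR 1 of 9 had an unadjusted p under 0.05 under LPS (6.52% of all genes) and 4 of 9 under PBS (3.83%). In the same order 2 of 9 and 1 of 9 log2 differences were positive. Their part in the levels of Fpr1 and Fpr2 was not tested. The most abundant was Csf3r, at 39.4 to 155 TPM. S100a9 reached 23.5 TPM, S100a8 15.1 TPM, Mmp9 11.8 TPM, Mmp8 11.1 TPM and Ngp 5.28 TPM in some library. Retnlg reached 2 counts and Ly6g 1 count at most.

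The Ccr7 libraries of Fes-/- lay above those of wild type under LPS and below them under PBS. Under LPS Ccr7 averaged 1.87 ± 0.209 CPM in Fes-/- and 1.16 ± 0.297 CPM in wild type (log2 0.68 ± 0.25, 95% interval 0.14 to 1.22, edgeR adjusted p = 0.719). Under PBS it averaged 0.0529 ± 0.0263 CPM in Fes-/- and 0.0997 ± 0.00923 CPM in wild type (-0.92 ± 0.43, edgeR adjusted p = 0.975), on 3 to 7 counts per library in Fes-/- and 8 to 11 in wild type. The 10 dendritic cell markers summed to 38.8 to 43.3 TPM in Fes-/- and 33.3 to 36.9 TPM in wild-type LPS libraries, and to 72.4 to 74.7 and 57.4 to 65.1 TPM in PBS libraries, nearly all of it Cadm1. Flt3, Zbtb46 and Xcr1 reached at most 0.134, 0.214 and 0.398 TPM in any library, Clec9a 0.872 TPM and Batf3 7.27 TPM. None of the 10 was at 0 in all libraries, and the part of these cells in the Ccr7 level was not tested.

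Cx3cr1 had the largest estimate of the 8 under LPS, with 17.2 ± 5.82 CPM in Fes-/- and 9.84 ± 5.10 CPM in wild type (0.81 ± 0.45, 95% interval -0.20 to 1.81, edgeR adjusted p = 0.813). Under PBS it averaged 61.9 ± 19.7 and 40.4 ± 12.6 CPM (0.62 ± 0.42, edgeR adjusted p = 0.975). The genotypes overlapped in both treatments, and the upper ends of the intervals were 3.51-fold under LPS and 2.95-fold under PBS. Cxcr4 under PBS averaged 87.1 ± 24.8 CPM in Fes-/- and 123 ± 34.9 CPM in wild type (-0.50 ± 0.21, edgeR adjusted p = 0.975), with overlapping libraries, and under LPS 0.997 ± 0.0231 and 0.986 ± 0.0764 CPM (0.017 ± 0.37, edgeR adjusted p = 0.998).

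Ccrl2 averaged 556 ± 24.8 CPM in Fes-/- and 550.3 ± 17.9 CPM in wild type under LPS, a log2 difference of 0.016 ± 0.12 whose 95% interval ran from 0.850-fold to 1.20-fold, and 4.14 ± 0.891 and 4.18 ± 0.516 CPM under PBS (-0.010 ± 0.13, 0.818-fold to 1.20-fold). Ccr1 averaged 41.0 ± 10.8 CPM in Fes-/- and 41.5 ± 6.36 CPM in wild type under LPS (-0.019 ± 0.26, interval -0.59 to 0.55) and 18.3 ± 4.96 and 14.1 ± 4.01 CPM under PBS (0.37 ± 0.26, interval -0.21 to 0.95). Ccr2 averaged 31.3 ± 8.28 CPM in Fes-/- and 26.6 ± 8.81 CPM in wild type under LPS (0.24 ± 0.30, interval -0.43 to 0.90) and 97.8 ± 12.5 and 108 ± 31.9 CPM under PBS (-0.15 ± 0.29, interval -0.79 to 0.50). The libraries of both genotypes overlapped for all 3 in both treatments.

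**Figure D4:**
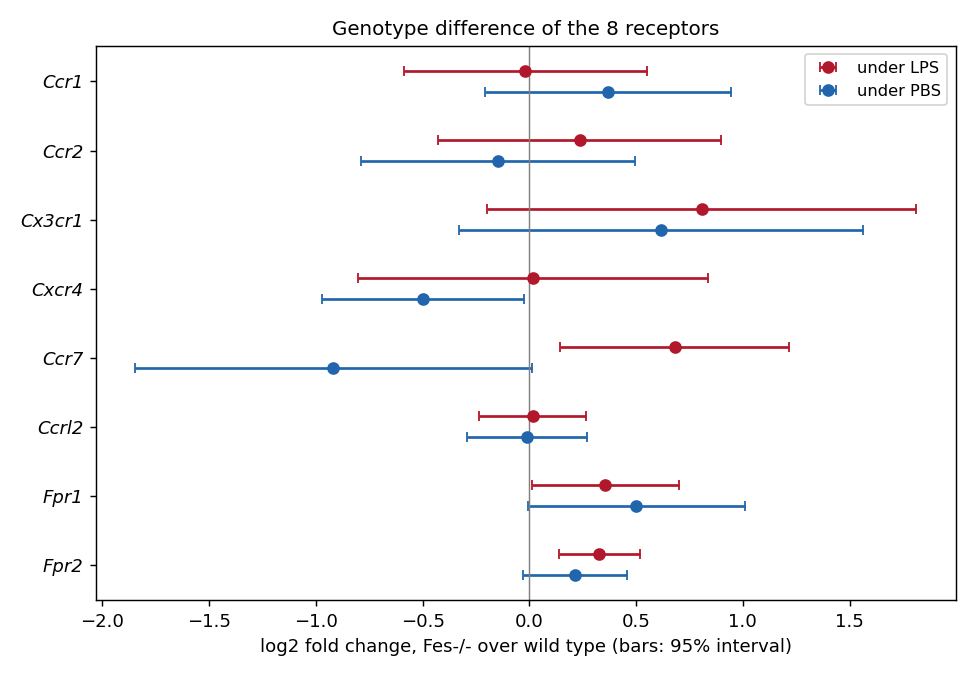
Log2 fold change of Fes-/- over wild-type macrophages for each receptor under LPS (red) and PBS (blue) from the edgeR fit, bars 95% intervals with no adjustment for the number of genes. The intervals of Ccr7, Fpr1 and Fpr2 under LPS and of Cxcr4 under PBS leave out 0, but no adjusted p was under 0.05.

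The third question was whether the size of the LPS effect depends on Fes, tested as the difference of the 2 LPS effects. None of the 8 was called, beside 0.019% of all tested genes (0.00633% higher, 0.0127% lower), 1 of 8 had an unadjusted p under 0.05 (2.94% of all genes), and DESeq2 called 0. That gene was Ccr7, which had 3 to 11 counts under PBS and passed the filter on low counts through its LPS libraries. Its value is therefore given as a description with no test. The fitted LPS effect of Ccr7 was 1.60 ± 0.50 higher on the log2 scale in Fes-/- than in wild type. On log2(TPM + 1) this difference was 0.59. The differences of Ccrl2 (0.026 ± 0.17), Fpr2 (0.11 ± 0.15), Fpr1 (-0.15 ± 0.28), Cx3cr1 (0.19 ± 0.61), Cxcr4 (0.51 ± 0.43), Ccr1 (-0.39 ± 0.37) and Ccr2 (0.38 ± 0.41) had 95% intervals that included 0.

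Related genes were read from 3 lists of chemoattractant biology. Of 31 other chemoattractant receptors, 13 were tested, and none of the 13 was called between genotypes by edgeR under LPS (0 at an unadjusted p under 0.05) or PBS (1 at an unadjusted p under 0.05). Under LPS in Fes-/- 9 rose, 3 fell and 1 was not called. In wild type 8 rose, 3 fell and 2 were not called. Library totals gave 5 rises and 5 falls in each genotype. These counts include Fpr3, with no count in any PBS library, Xcr1, at 0.0223 to 0.0806 CPM under PBS, and Ccr9. Like Ccr7, these genes passed the filter on low counts through their LPS libraries, so their LPS values are a description with no test. The same holds for Ltb4r1, which was near 0 under LPS and passed through its PBS libraries. Ccr3, an eotaxin receptor, averaged 61.9 ± 2.65 CPM under LPS and 7.74 ± 0.871 CPM under PBS in Fes-/-, and 63.6 ± 2.75 and 7.37 ± 1.40 CPM in wild type. Its log2 change was 3.00 ± 0.12 in Fes-/- and 3.11 ± 0.12 in wild type. In the same order, Ptafr, the receptor of platelet-activating factor, changed by 1.54 ± 0.12 and 1.36 ± 0.12. C5ar1, a receptor of complement C5a, changed by 0.97 ± 0.15 and 1.11 ± 0.15, and its call was lost with library totals (0.033 and 0.20, adjusted p = 0.844 and 0.232). The second C5a receptor C5ar2 fell (-2.41 ± 0.14 and -2.27 ± 0.14), as did the chemokine receptor Cxcr3 (-0.81 ± 0.24 and -0.87 ± 0.25). Near 0 in 1 of the treatments, and so given with no fold, were Ccr9, a gut-homing receptor, at 3.92 ± 0.156 CPM under LPS and 0.0836 ± 0.0695 CPM under PBS in Fes-/- and 3.54 ± 0.266 and 0.153 ± 0.0776 CPM in wild type, and Ltb4r1, a leukotriene B4 receptor, at 0.0311 ± 0.0203 and 0.278 ± 0.0684 CPM in Fes-/- and 0.0641 ± 0.0206 and 0.273 ± 0.0190 CPM in wild type.

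Ligands of the 8 receptors had a median log2 change under LPS of 5.74 in Fes-/- and 5.37 in wild type over the 16 of 19 that were tested, or 4.81 and 4.47 with library totals. With TMM 12 rose, 1 fell and 3 were not called in Fes-/-, and 13 rose, 1 fell and 2 were not called in wild type; with library totals 11 and 12 rose and 3 and 4 fell. The CCR1 ligand gene Ccl3 averaged 7031 ± 658 CPM under LPS and 10.5 ± 2.27 CPM under PBS in Fes-/-, and 6575 ± 543 and 8.65 ± 0.774 CPM in wild type. Its log2 change was 9.39 ± 0.20 in Fes-/- and 9.57 ± 0.20 in wild type. In the same order, Ccl9, another CCR1 ligand, changed by 2.80 ± 0.11 and 2.91 ± 0.11, and Ccl4, a related CC chemokine gene, by 9.68 ± 0.21 and 10.15 ± 0.22. Ccl8, a ligand of CCR2 in human and near 0 under PBS, averaged 10.8 ± 0.280 CPM under LPS and 0.147 ± 0.0695 CPM under PBS in Fes-/-, and 11.5 ± 2.63 and 0.174 ± 0.0686 CPM in wild type. Hebp1, whose protein yields a peptide that activates formyl peptide receptors, was the ligand gene that fell with TMM (-0.34 ± 0.12 and -0.49 ± 0.12). Ccl8 and Camp, both near 0 under PBS, are part of the ligand counts, but their LPS values are a description with no test. The CCR7 ligand genes Ccl19 and Ccl21a were listed at 0 in every library. No ligand was called between genotypes by edgeR. At an unadjusted p under 0.05 there were 2 of 16 under LPS (6.52% of all genes) and 5 of 16 under PBS (3.83%). The list was not tested as a set.

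Of 30 genes that act downstream of these receptors, all were tested and none was called between genotypes by edgeR (4 at an unadjusted p under 0.05 under LPS and 1 under PBS). With LPS 17 rose, 10 fell and 3 were not called in Fes-/-, and 16 rose, 10 fell and 4 were not called in wild type, against 7 rises and 19 falls in each genotype with library totals. Pik3r5 and Pik3r6, regulatory subunits of PI3-kinase gamma, rose, the first by 3.34 ± 0.10 on the log2 scale in Fes-/- and 3.47 ± 0.10 in wild type and the second by 2.50 ± 0.12 and 2.36 ± 0.12. So did Rgs14 (1.43 ± 0.076 and 1.51 ± 0.076), a regulator that speeds the shut-off of G proteins. Rgs16, of the same family, averaged 9.52 ± 0.208 CPM under LPS and 0.0409 ± 0.0293 CPM under PBS in Fes-/-. In wild type it averaged 12.3 ± 0.536 and 0.0203 ± 0.0194 CPM. With its PBS libraries near 0 no fold is given, and its place among the rises is a description with no test. Both beta-arrestins, which uncouple and internalise activated receptors, fell, with log2 changes of -1.99 ± 0.080 in Fes-/- and -2.28 ± 0.081 in wild type for Arrb1 and -1.32 ± 0.13 and -1.75 ± 0.13 for Arrb2. The receptor kinase Grk6 fell (-1.61 ± 0.091 and -1.77 ± 0.092), and so did Rgs19 (-1.18 ± 0.078 and -1.14 ± 0.079). These 8 signalling genes kept their direction with library totals.

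**Figure D5:**
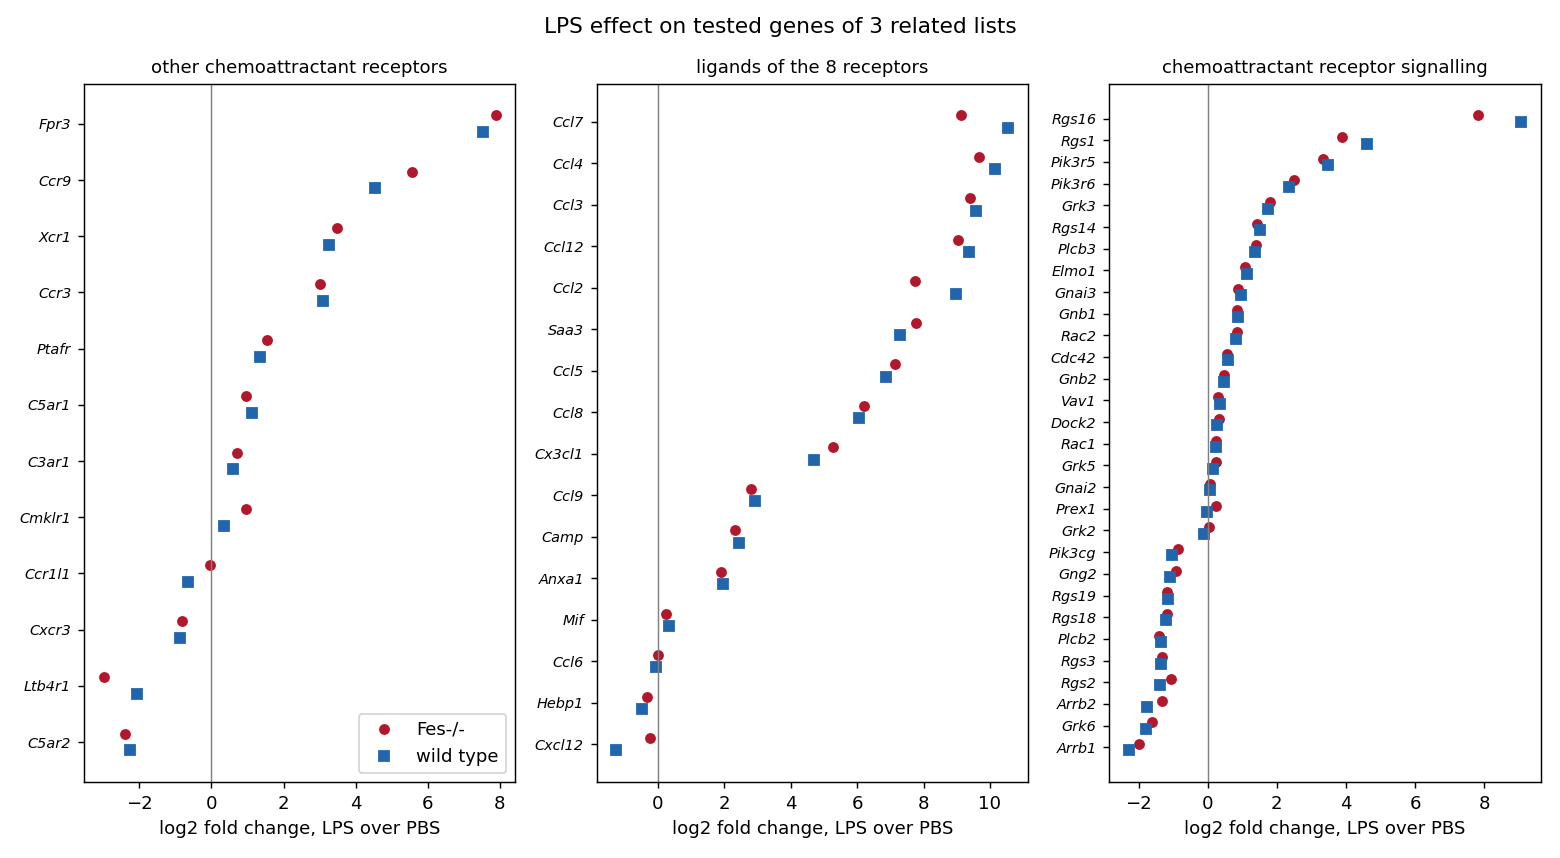
Log2 fold change of LPS over PBS with TMM scaling for tested genes of 3 lists, 12 of the 13 other receptors, 16 ligands and 30 signalling genes, in Fes-/- (red circles) and wild-type (blue squares) macrophages. Ligands reach the highest values, Ccl7 and Ccl4 among them, with Ccl4 at 9.68 in Fes-/- and 10.15 in wild type. Values of genes near 0 under 1 treatment, such as Rgs16, Ccr9, Ltb4r1 and Ccl8, depend on the prior count.

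Finally, the genes whose pattern was most like each receptor were found as those with the smallest root-mean-square difference in log2 CPM over the 12 libraries, after each gene's mean was removed. Fpr2 was the second closest gene to Fpr1 (0.19), after Mycl (0.15) and before Dnmt3c (0.28), while the 3 closest to Fpr2 were Fpr1 (0.19), Dusp1 (0.20) and Nfkbiz (0.22). The genes nearest to Ccrl2 were Gbp2 (0.19), Nfkbiz (0.21) and Csf3 (0.22). For Ccr1 they were Serpinb9 (0.13), Rbpj (0.17) and Myo1d (0.18), and for Ccr7 Phldb2 (0.32), Arhgef3 (0.34) and Mark1 (0.36). Among the receptors that fell, Cxcr4 lay nearest to Sesn1 (0.31), Fam214a (0.40) and Frat1 (0.41), Ccr2 to Abcg1 (0.18), Cenpa (0.19) and Spef1 (0.19), and Cx3cr1 to Angptl2 (0.21), Pvt1 (0.29) and Gsdme (0.32). The median distance to all named genes was 0.91 for Ccr1 and 3.57 for Ccrl2. Some of these genes had 0 TPM in at least 1 library: Phldb2 (at most 0.283 TPM), Mark1 (0.409), Dnmt3c (3.51), Csf3 (7.96) and Frat1 (12.3). Their log2 values depend in part on the prior count. These likenesses describe 12 libraries that share the same LPS contrast.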

How the data were processed

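The data are raw whole-number counts per Ensembl gene as deposited, 1 column per library, and TPM values as deposited by the authors. The submitters' processing notes list, without roles, DESeq2 1.34.0, R 4.1.12, Picard 2.9.0 and STAR 2.7.8a, and the builds mm9 and GRCm38; no counting program is named in the labels. Gene lengths implied by counts over TPM lay within 1% of GENCODE M21 exon lengths for 9353 of 9487 genes, so positions were taken from M21 on GRCm38.

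Counts were fitted in R 4.3.3 with edgeR 4.0.16: filterByExpr, TMM factors, 1 mean per group over 12 libraries (8 residual degrees of freedom) and two-sided robust quasi-likelihood F tests. Calls were made at an adjusted p under 0.05 (Benjamini-Hochberg, 15801 genes); adjusted p-values given without a tool come from this fit. Standard errors and 95% intervals were derived from the F statistics, and the scripts were tested on simulated data. LPS and PBS libraries of a genotype were fitted as independent, and no molecular identifiers are described.

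Alternatives were DESeq2 1.42.0, RLE factors, library totals, no filter, 1 CPM in 3 libraries, each comparison fitted on its own groups, limma-trend (limma 3.58.1) on log2(TPM + 1), log2(TPM + 0.1) and unfiltered log2(TPM + 1), replicate blocks, and each library left out. The members, lists and alternatives were chosen with earlier results of these data known. Of the related lists the text names any gene called between genotypes and the 4 with the smallest p under LPS in wild type in each direction; likeness was ranked over 12631 genes with a name. One tested gene of the receptor list is counted but not reported here. Transcripts were compared by BLAST, and figures drawn with matplotlib 3.10.9.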

Additional observations from a re-analysis of the deposited data

Results flagged for a closer look

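The targeted gene Fes differed more between genotypes under LPS than under PBS, and was picked out because the difference of its LPS effects, Fes-/- minus wild type, was called by edgeR (log2 -0.87 ± 0.10, adjusted p = 0.00556). Its level was 33.8 ± 1.16 CPM in Fes-/- LPS and 162 ± 9.77 CPM in wild-type LPS libraries, and 68.6 ± 2.05 CPM in Fes-/- PBS and 179 ± 10.2 CPM in wild-type PBS libraries (SD, n = 3 each). None of the 8 receptors met the rules for a closer look, and groups of 3 libraries are too small for the test of single outlying libraries.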

How the results depend on the processing

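All 8 receptors kept their direction under LPS in both genotypes in all 23 alternatives. Ccr7 aside, which is given no LPS test, Ccr1 alone lost its call. In Fes-/- it was lost with library totals (0.23, adjusted p = 0.411), log2(TPM + 1) (0.18, 0.496), log2(TPM + 0.1) (0.19, 0.493) and unfiltered log2(TPM + 1) (0.18, 0.609). In wild type it was lost with the last of these (0.62, limma adjusted p = 0.0771). Of all genes called under LPS, 46.9% were higher in Fes-/- and 47.1% in wild type with TMM, against 18.5% and 19.2% with library totals. Between genotypes the fit with no filter on low counts called 3 receptors under LPS, Cx3cr1 (0.84, adjusted p = 2.35e-11), Fpr1 (0.39, 0.0191) and Fpr2 (0.36, 0.0241), and 2 under PBS, Cx3cr1 (0.60, 3.49e-06) and Cxcr4 (-0.51, 0.000105), where the other alternatives called 0; the cause was not tested. That fit called 358 genes in all under LPS and 315 under PBS, against 17 and 13 with the filter, and DESeq2 called 37 and 33; for the difference of LPS effects the counts were 90 without the filter, 5 by DESeq2 and 3 with the filter. Signs turned where differences were near 0: Ccr1 under LPS with no filter (0.018), and Ccrl2 under PBS with library totals (0.023), log2(TPM + 1) (0.022), log2(TPM + 0.1) (0.023) and unfiltered log2(TPM + 1) (0.022). With single libraries left out, log2 values ranged from -0.23 to 0.15 (Ccr1), -0.014 to 0.051 (Ccrl2) and -0.044 to 0.057 (Cxcr4) between genotypes under LPS, from -0.21 to 0.12 for Ccrl2 under PBS, and for the difference of LPS effects from -0.11 to 0.22 (Ccrl2), -0.11 to 0.66 (Cx3cr1) and -0.31 to 0.057 (Fpr1). In the PBS libraries alone Ccr7 did not pass the filter.

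Deviations from the group means correlated between same-numbered LPS and PBS libraries at 0.0678, 0.0894 and 0.189 in Fes-/- and 0.141, 0.166 and 0.137 in wild type, and each library correlated best with its own number within its genotype, a hint from the data and not the design. Same-numbered libraries of different genotypes correlated at -0.0429, -0.129 and -0.151 under LPS and at 0.0161, -0.156 and -0.135 under PBS. A replicate block over all libraries ties equal numbers across genotypes, which are different mice, so it is no check of pairing between genotypes. With this block 0 receptors were called between genotypes under LPS, 0 under PBS and 0 for the difference. Ccr7 aside, which is given no LPS test, every receptor was called for LPS against PBS in each genotype. A replicate block within genotype gave the same for LPS against PBS, and 0 for the difference.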

Other observations

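Some ligand and signalling genes that fell short of the test, chosen after their values were seen, are given as values. Cx3cl1, the gene of the CX3CR1 ligand fractalkine, averaged 48.2 ± 24.6 CPM in Fes-/- and 20.8 ± 11.9 CPM in wild-type LPS libraries (log2 1.21 ± 0.50, edgeR adjusted p = 0.761). In the same libraries Arrb2 averaged 128 ± 24.6 CPM in Fes-/- and 97.3 ± 15.8 CPM in wild type (0.40 ± 0.13, edgeR adjusted p = 0.696), and Arrb1 66.1 ± 2.09 and 55.9 ± 3.48 CPM (0.24 ± 0.078, edgeR adjusted p = 0.696). Cxcl12, the ligand gene of CXCR4, averaged 0.162 ± 0.105 CPM in Fes-/- LPS, 0.0802 ± 0.0689 CPM in wild-type LPS, 0.184 ± 0.0508 CPM in Fes-/- PBS and 0.192 ± 0.105 CPM in wild-type PBS libraries (SD, n = 3 each).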
